A study of Mus musculus with 8 samples.

Results

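The 9 long noncoding RNA (lncRNA) genes described here were picked by name and fall into 3 groups by role: Neat1 and Malat1, which stay in the nucleus, Meg3, Rian and H19, which are expressed from the maternal chromosome only, and Gas5, Snhg1, Snhg8 and Snhg12, whose introns carry small nucleolar RNAs (snoRNAs). Of the 45706 gene rows in the deposited table, 8 matched these symbols in the GENCODE M21 annotation of GRCm38, and Snhg1 was not analysed here. The measurements are polyA-selected RNA-seq counts from 8 mouse livers, 4 labelled Srsf10-kd and 4 labelled Ctrl. All mice were males of the strain labelled C56B6/J. They were injected at 6 weeks of age by tail vein with an adeno-associated virus that carried a mirE/shRNA to Srsf10 or a control mirE/shRNA, and 4 weeks later were moved to a high-fat diet (60% of calories from fat) for 12 weeks. In both groups a chicken β-actin promoter, which is not restricted to hepatocytes, drove GFP and the shRNA, so control livers carried virus and GFP too and had the same diet. Libraries held 50456404 to 59697241 counts assigned to genes.

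Malat1 and Neat1 are abundant nuclear RNAs that lie side by side in the genome. Malat1 is held in nuclear speckles, where splicing factors gather, and the long form of Neat1 is the scaffold on which paraspeckles are built, while a shorter form of Neat1 ends at an upstream polyadenylation site. Meg3 and Rian belong to the imprinted Dlk1-Dio3 cluster, and H19 is the maternally expressed neighbour of Igf2. H19 is abundant in fetal liver and falls to a low level after birth, while it stays expressed in skeletal muscle. Host genes such as Gas5 and the Snhg genes are transcribed to release box C/D or H/ACA snoRNAs from their introns, and the spliced exons that remain are often decayed on ribosomes by the nonsense-mediated pathway. Many of them begin with a run of pyrimidines, a feature they share with messenger RNAs for ribosomal proteins.

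Because the libraries were selected on polyA tails, and because SRSF10 was studied here for its part in polyadenylation, the annotated 3′ ends of Neat1, Malat1 and Gas5 are shown first. Each line gives the last 60 bases of a GENCODE M21 transcript on its own strand (GRCm38), with a polyadenylation hexamer, AATAAA or ATTAAA, in capitals.
Neat1, long form: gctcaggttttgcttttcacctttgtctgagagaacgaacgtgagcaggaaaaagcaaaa
Neat1, short form: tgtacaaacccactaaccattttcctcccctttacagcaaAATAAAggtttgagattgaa
Malat1: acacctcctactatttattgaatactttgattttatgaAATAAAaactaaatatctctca
Gas5: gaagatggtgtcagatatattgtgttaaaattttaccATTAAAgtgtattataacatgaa
The 2 Neat1 transcripts begin at nearly the same base but end apart. The short form (3004 bases) ends at base 5842307 of chromosome 19 and holds AATAAA with 14 bases after it, whereas the window of the long form (20771 bases, ending at base 5824708) holds neither hexamer. The long form is known to end in a genome-encoded triple helix in place of a polyA tail. Malat1 also has a mature end made by RNase P, and its annotated transcript runs on to a hexamer that stands 16 bases from its end. A transcript each of H19, Meg3, Rian, Snhg1, Snhg8 and Snhg12 held AATAAA in the same window. The transcripts searched were picked by name, and those of Gas5, H19, Snhg1, Snhg8 and Snhg12 are not the longest annotated ones. In the same window on the transcript strand, 56.5% of the longest transcripts of the 26416 genes with a count held one of these hexamers. The picked transcripts are therefore not compared like for like with that share.

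The start sites of the snoRNA hosts are shown because their first bases set them apart from the other members. Each line gives 40 bases around the start in the RefSeq table (GRCm38.p6), 10 before it and 30 from it, with a run of at least 5 pyrimidines that begins within 4 bases of the start in capitals.
Gas5: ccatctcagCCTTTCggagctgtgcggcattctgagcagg
Snhg1: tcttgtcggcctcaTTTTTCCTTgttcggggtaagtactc
Snhg8: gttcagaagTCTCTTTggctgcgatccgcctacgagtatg
Snhg12: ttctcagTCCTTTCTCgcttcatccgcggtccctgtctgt
Malat1: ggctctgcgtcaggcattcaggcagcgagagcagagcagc
All 4 snoRNA hosts held such a run, of 6 to 9 bases, and Malat1, Meg3 and Rian held none. Of the 7 members found in that table (Neat1 and H19 were not), 4 therefore held a run, against 20.2% of 27025 genes, 7 of 36 protein-coding snoRNA hosts and 4 of 15 other Snhg genes. These are matches of letters on the gene strand, and translation or start site use was not measured.

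In the annotation, Malat1 spans chr19:5795690-5802672 and Neat1 chr19:5824708-5845478, both on the minus strand. Meg3 (chr12:109541001-109571726) and Rian (chr12:109603940-109661716) lie on the plus strand, and H19 (chr7:142575529-142578143) on the minus strand. Gas5 (chr1:161034422-161038539) holds 10 annotated snoRNA genes, Snhg8 (chr3:123507552-123508404) holds 1, Snhg12 (chr4:132308623-132311024) holds 5 and Rian holds 13. The table listed all of those snoRNA genes at 0 counts in the 8 livers. In this annotation those of Gas5, Snhg8 and Snhg12, and some of Rian, overlap host exons on the same strand. STAR's counting leaves out reads that fall in more than 1 gene, so the 0 counts of these overlapping genes do not measure the snoRNAs. The other snoRNA genes of Rian lie in its introns and were at 0 counts too, and that rule does not cover them.

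Levels per length spanned a wide range between members. In CPM (counts-per-million, scaled by TMM, edgeR's trimmed mean of M values) per kilobase of merged exon, Malat1 had the highest mean over the 8 livers, 129 ± 79.3 (SD, n = 8). Snhg8 followed at 21.3 ± 10.2 and Gas5 at 20.3 ± 5.79, and these 2 neighbours overlapped, with Snhg8 above Gas5 in 5 of 8 livers. Neat1 stood at 8.84 ± 3.94 and Snhg12 at 2.54 ± 1.01, and although their ranges overlapped, Neat1 was above Snhg12 in 8 of 8 livers. Neat1 was divided by the 20771 bases of its long form, which lacks a polyA tail, so its place in this order depends on that length. A level on the 3004 bases of the short form was not computed. The imprinted genes formed the low end. H19 stood at 0.148 ± 0.150, Meg3 at 0.0316 ± 0.0081 and Rian at 0.0107 ± 0.0035 CPM per kilobase. When the longest annotated transcript replaced the merged exons, Gas5 moved to 29.9 CPM per kilobase and above Snhg8 at 23.4. The whole-liver count does not tell fewer cells of a type from less RNA per cell.

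Srsf10, the target of the shRNA, was checked first. Its level was 34.3, 34.0, 41.0 and 36.5 CPM in Srsf10-kd livers 1 to 4 and 31.6, 33.7, 35.3 and 30.9 CPM in Ctrl livers 1 to 4. The groups overlapped and the labelled knockdown livers were not the lower ones (log2 fold change 0.15, SE 0.10, edgeR quasi-likelihood adjusted p = 0.378), so every direction below is between livers labelled Srsf10-kd and livers labelled Ctrl. The study itself reported lower SRSF10 in knockdown livers, as protein by western blot and as RNA by qPCR. Those measures are not part of the counts read here. Over the 15491 genes tested, 11 passed an adjusted p of 0.05, a background of 0.0710%, and all were lower in the libraries labelled Srsf10-kd. Other fits gave calls in both directions, 316 higher and 508 lower in DESeq2, 779 and 1035 in limma-voom, and 203 and 341 in edgeR without Ctrl 3. A principal component of the 8 livers placed Srsf10-kd 3 far from the others. Its slope of log2 CPM on log2 transcript length was 0.43, against 0.54 to 0.58 in the other Srsf10-kd livers and 0.58 to 0.74 in the Ctrl livers.

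None of the 8 lncRNAs passed the test between the groups with edgeR, or with DESeq2 (5.27% of all genes called) or limma-voom (11.7%). In edgeR, 3 of them, Malat1, Meg3 and Gas5, had an unadjusted p under 0.05, all with higher values in the libraries labelled Srsf10-kd, against 21.8% of all genes in either direction and 11.2% in that direction. The groups did not overlap for 2 of the 8, Meg3 and Gas5, against 14.3% of all genes. Without Ctrl 3 and Srsf10-kd 3, edgeR called 0 of 8 against 8.62% of genes, 0 of 8 had an unadjusted p under 0.05, and the groups were then apart for 3 of 8 (Meg3, Gas5 and Snhg8) against 34.9% of genes.

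**Figure D1:**
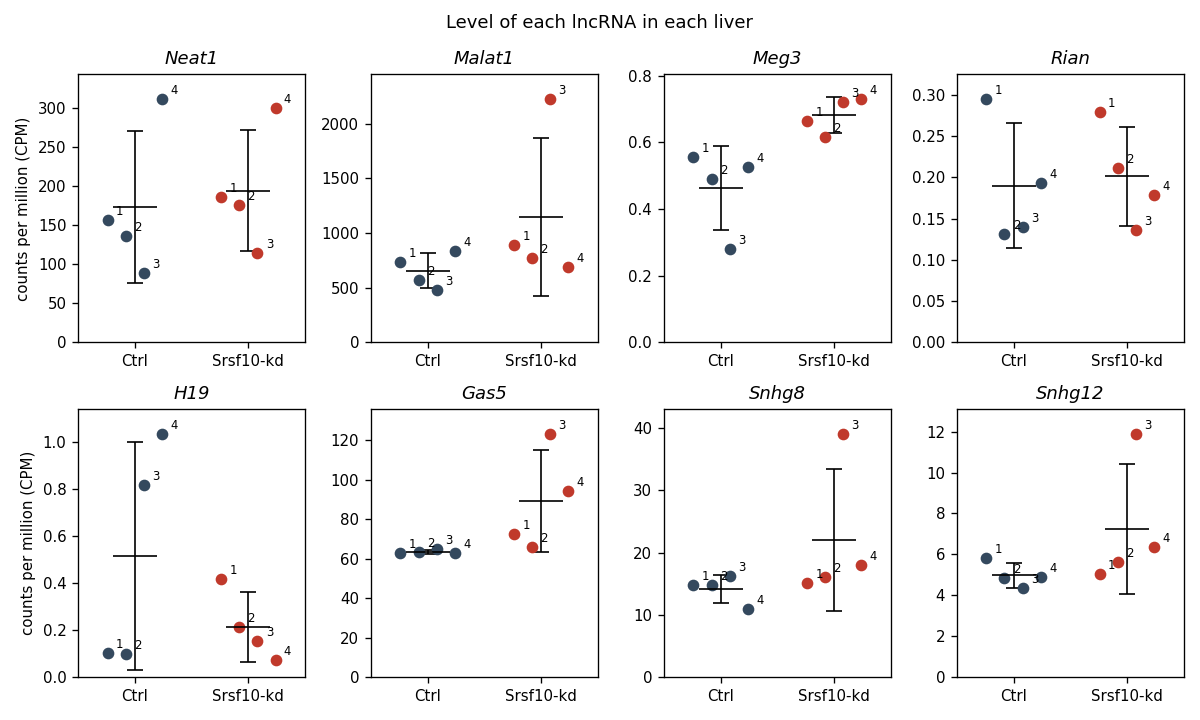
CPM (vertical axis, linear, from 0) of each lncRNA in each liver of the 2 groups (horizontal axis); points carry the liver number, and bars give the mean and SD of 4 livers. Srsf10-kd 3 is the highest of the 8 livers for Malat1 (2229.6 CPM), Gas5, Snhg8 and Snhg12, and both livers numbered 4 are the highest for Neat1.

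Neat1 varied widely inside both groups. It was measured at 186, 176, 114 and 299.7 CPM in Srsf10-kd livers 1 to 4 and at 157, 137, 88.3 and 312 CPM in Ctrl livers 1 to 4. In both groups liver 4 was the highest and liver 3 the lowest, and the Srsf10-kd range lay within the Ctrl range. Between groups the log2 fold change was 0.16 (SE 0.38, edgeR adjusted p = 0.811, exact two-sided permutation p = 0.686 on log2 CPM). Its sign turned when Srsf10-kd 4 was left out (-0.13) or Ctrl 3 was left out (-0.06). With the length trend removed, on the 20771 bases of the long form, it was 0.70 (edgeR adjusted p = 0.313).

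Malat1 was set apart by a single liver. It stood at 894, 776, 2229.6 and 692 CPM in Srsf10-kd livers 1 to 4 and at 731, 567, 482 and 838 CPM in Ctrl livers 1 to 4. Srsf10-kd 3 held 2.49 times the next highest liver, while of the other 3 livers of its group Srsf10-kd 1 was just above the Ctrl range and the rest were within it. The mean was 1148 ± 726 CPM (SD, n = 4) in Srsf10-kd and 654 ± 160 CPM (SD, n = 4) in Ctrl. The log2 fold change was 0.81 (SE 0.36, edgeR adjusted p = 0.228, exact two-sided permutation p = 0.143). It came to 0.27 without Srsf10-kd 3 (edgeR adjusted p = 0.508) and to 0.15 without Ctrl 3 and Srsf10-kd 3 (edgeR adjusted p = 0.598). Removing the length trend, with Srsf10-kd 3 kept, raised the log2 fold change to 1.12 (edgeR adjusted p = 0.232).

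The order of the livers was the same for Malat1 and Neat1 in Ctrl (3, 2, 1, 4 from low to high) but not in Srsf10-kd, where Neat1 kept that order and Malat1 had liver 3 as its highest and liver 4 as its lowest. The ratio of Malat1 to Neat1 CPM was 19.5 in Srsf10-kd 3, whereas it lay between 2.31 and 4.81 in the other Srsf10-kd livers and between 2.69 and 5.46 in the Ctrl livers. In Srsf10-kd 3 Malat1 was therefore highest while Neat1 was at its second lowest level of the 8 livers.

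A gene annotated on the opposite strand inside the Malat1 exon gave a different pattern. Gm37376 (chr19:5801941-5802393, plus strand, biotype to be experimentally tested) covers 6.49% of the Malat1 exon bases. It was measured at 59.3, 48.0, 55.5 and 62.1 CPM in Srsf10-kd livers 1 to 4 and at 25.5, 32.3, 47.5 and 27.6 CPM in Ctrl livers 1 to 4. All Srsf10-kd livers were above all Ctrl livers, the nearest 2 being Srsf10-kd 2 and Ctrl 3. Its log2 fold change was 0.76 (SE 0.19, edgeR adjusted p = 0.116), and the exact two-sided permutation p of 0.0286 is the smallest that 4 against 4 livers can give. DESeq2 gave Gm37376 an adjusted p of 0.0122 and limma-voom one of 0.00727, and removing the length trend took the log2 fold change to 0.40 (edgeR adjusted p = 0.275). Gm37376 held 2.49% to 8.97% as many counts as Malat1 in the Srsf10-kd livers and 3.30% to 9.85% in the Ctrl livers, with the lowest share in Srsf10-kd 3. The study's methods name a directional library kit, while the strand setting of the counting is not given in the sources used here. Gm37376 shares all of its bases with Malat1 and still had 1466 to 3484 counts per liver, and STAR's unstranded count leaves out reads that fall in more than 1 gene. The part of Malat1 reads assigned to the wrong strand in these counts was not tested.

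**Figure D2:**
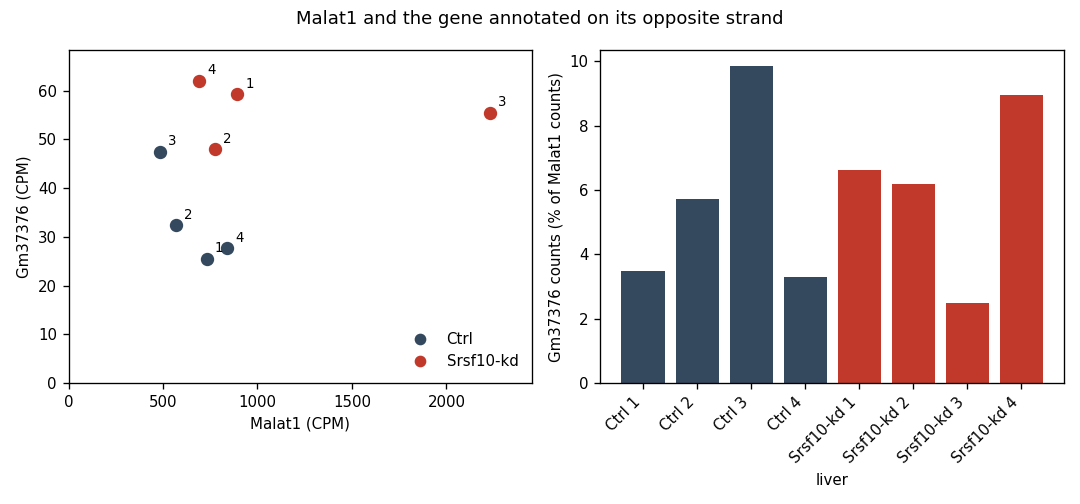
Left, Gm37376 against Malat1 in CPM, 1 point per liver with its number; right, Gm37376 counts as a percent of Malat1 counts in each liver. Srsf10-kd 3 stands far to the right for Malat1 but within its group for Gm37376, at 2.49% of Malat1 counts.

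The imprinted members were near the floor of the libraries. Meg3 had 14 to 41 raw counts per liver, Rian 7 to 17 and H19 4 to 59, and counting error alone gives a coefficient of variation of 17.7%, 30.3% and 22.4% at their mean counts. The measured coefficient of variation of CPM over the 8 livers was 25.8% for Meg3 and 32.6% for Rian, and 101% for H19, far above its counting error.

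Meg3 was the imprinted member whose groups did not overlap. It was measured at 0.662, 0.615, 0.720 and 0.730 CPM in Srsf10-kd livers 1 to 4 and at 0.556, 0.491, 0.278 and 0.527 CPM in Ctrl livers 1 to 4. Every Srsf10-kd liver was above every Ctrl liver, and Ctrl 3 was the lowest. Meg3 had a log2 fold change of 0.55 (SE 0.23, edgeR adjusted p = 0.211), and the exact two-sided permutation p was 0.0286, the smallest 4 against 4 livers can give. Without Ctrl 3 the log2 fold change was 0.38, and without Ctrl 3 and Srsf10-kd 3 it was 0.35 (edgeR adjusted p = 0.263). It was 0.99 with the length trend removed (edgeR adjusted p = 0.141).

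Rian, from the same imprinted cluster, gave 0.279, 0.211, 0.136 and 0.178 CPM in Srsf10-kd livers 1 to 4 and 0.295, 0.131, 0.139 and 0.193 CPM in Ctrl livers 1 to 4. The groups covered the same range. The log2 fold change was 0.09 (SE 0.35, edgeR adjusted p = 0.896, exact two-sided permutation p = 0.80).

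H19 split the livers in a way that did not follow the labels. It stood at 0.418, 0.211, 0.156 and 0.0713 CPM in Srsf10-kd livers 1 to 4 and at 0.104, 0.0981, 0.816 and 1.04 CPM in Ctrl livers 1 to 4. Ctrl 3 and Ctrl 4 were the highest of all, while Ctrl 1 and Ctrl 2 lay within the Srsf10-kd range. The log2 fold change of -1.23 had an SE of 0.78 (edgeR adjusted p = 0.356, exact two-sided permutation p = 0.429), and limma-voom with quality weights turned it to 0.11 (adjusted p = 0.940).

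The tested genes most like H19 over the 8 livers were Tnnt3, a fast skeletal muscle troponin (r = 0.97), Itgam, an integrin of myeloid cells (r = 0.97), and Atp2a1, the calcium pump of fast muscle (r = 0.95). Tnnt3 reached 0.854 CPM in Srsf10-kd 1, 1.27 in Ctrl 3 and 3.21 in Ctrl 4, and at most 0.192 in the other 5 livers. Acta1, skeletal muscle actin, was at 1.17, 2.49 and 5.04 CPM in those 3 livers and at most 0.211 in the other 5. H19 was highest in the same 3 livers. The part of muscle RNA in the H19 values was not tested.

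**Figure D3:**
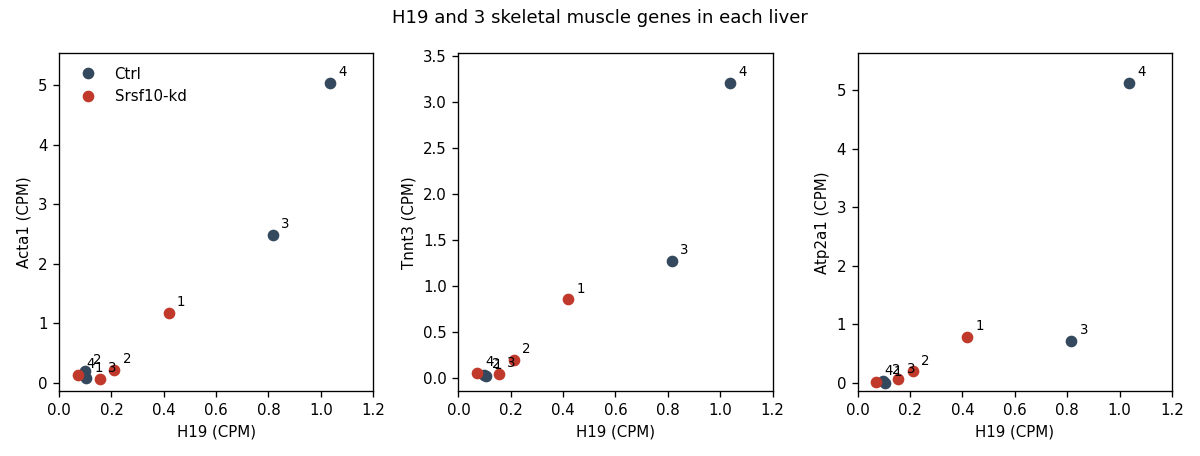
H19 (horizontal axis) against Acta1, Tnnt3 and Atp2a1 (vertical axes), all in CPM, 1 point per liver with its number. Ctrl 4, Ctrl 3 and Srsf10-kd 1 hold the highest values of H19 and of each muscle gene, and the other 5 livers lie near 0.

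The snoRNA hosts had higher means in the libraries labelled Srsf10-kd, 1.40 to 1.55 times those in Ctrl, with Srsf10-kd 3 the highest of the 8 livers for each of the 3. Across all genes that liver was the highest for 29.8%.

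Gas5, host of a series of box C/D snoRNAs, was measured at 72.7, 66.1, 123 and 94.4 CPM in Srsf10-kd livers 1 to 4. The 4 Ctrl livers were close together, at 62.8, 63.5, 65.0 and 63.0 CPM (63.6 ± 1.02, SD, n = 4). All Srsf10-kd livers lay above them, the lowest, Srsf10-kd 2, by a small margin, and their spread was far wider (89.2 ± 25.9, SD, n = 4). Gas5 had a log2 fold change of 0.49 (SE 0.18, edgeR adjusted p = 0.177, exact two-sided permutation p = 0.0286, again the smallest possible). It was 0.29 without Srsf10-kd 3 and 0.43 with the length trend removed (edgeR adjusted p = 0.283 and 0.267).

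Snhg8, which holds a single H/ACA snoRNA gene, was at 15.1, 16.1, 39.1 and 18.0 CPM in Srsf10-kd livers 1 to 4 and at 14.9, 14.8, 16.3 and 11.0 CPM in Ctrl livers 1 to 4. Srsf10-kd 3 stood at 2.17 times the next highest liver, and Srsf10-kd 1 and 2 were below Ctrl 3. For Snhg8 the log2 fold change was 0.63 (SE 0.29, edgeR adjusted p = 0.238, exact two-sided permutation p = 0.0857). It fell to 0.21 without Srsf10-kd 3 and to 0.26 with the length trend removed, with edgeR adjusted p of 0.493 and 0.550.

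Snhg12 was at 5.04, 5.63, 11.9 and 6.36 CPM in Srsf10-kd livers 1 to 4 and at 5.83, 4.84, 4.34 and 4.88 CPM in Ctrl livers 1 to 4. Ctrl 1 was above Srsf10-kd 1 and 2, and Srsf10-kd 3 was 1.87 times the next highest liver. The log2 fold change was 0.54 (SE 0.26, edgeR adjusted p = 0.249, exact two-sided permutation p = 0.114). Leaving out Srsf10-kd 3 gave 0.19 (edgeR adjusted p = 0.524).

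Snhg1 itself has no value here, but the 8 snoRNA genes annotated inside it carried a few counts. Summed, they came to 124, 131, 149 and 154 counts in Srsf10-kd livers 1 to 4 and to 129, 101, 73 and 88 counts in Ctrl livers 1 to 4. In CPM the sums were 2.16 to 2.90 in Srsf10-kd and 1.45 to 2.24 in Ctrl, and Ctrl 1 was above Srsf10-kd 1 (exact two-sided permutation p = 0.0571). A polyA-selected library holds few processed snoRNAs, and these counts were not assigned to host exon or snoRNA.

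The longest annotated transcripts of the 3 tested hosts are 776 to 2556 bases, against a median of 3072 over the genes tested, and the slope on transcript length was lowest in Srsf10-kd 3. Its part in their fold changes beyond the corrected values above was not tested.

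**Figure D4:**
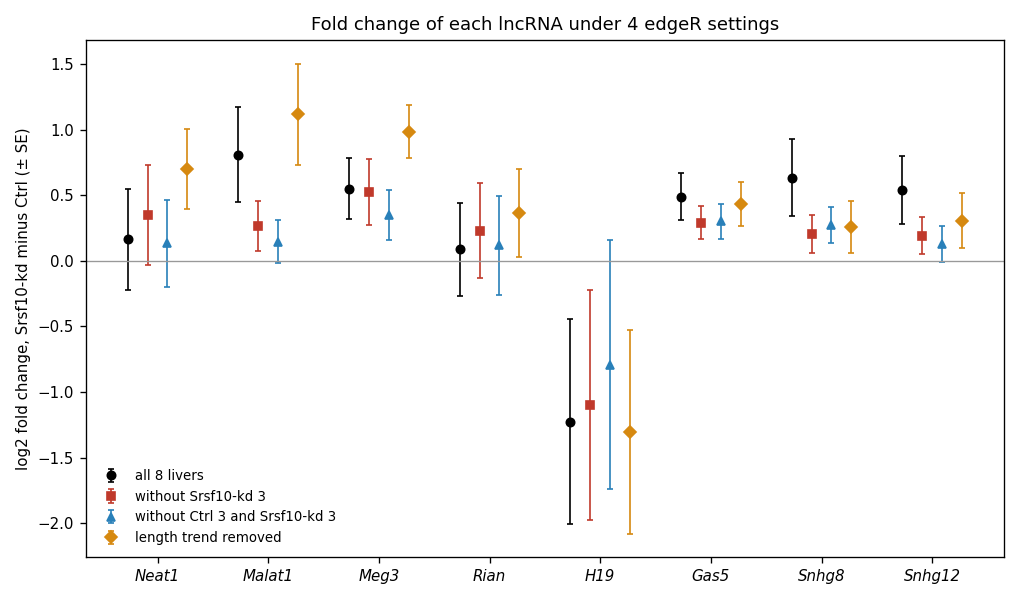
log2 fold change, Srsf10-kd minus Ctrl (vertical axis, bars are 1 SE), of each lncRNA in edgeR with all 8 livers, without Srsf10-kd 3, without Ctrl 3 and Srsf10-kd 3, and with the length trend removed. Malat1 falls from 0.81 to 0.27 when Srsf10-kd 3 is left out, and no point passed an adjusted p of 0.05.

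The other Snhg genes, a list of 18 of which 13 were tested, had log2 fold changes from -0.08 to 1.47. None passed edgeR's adjusted threshold, 7 (53.8%, against 21.8% of all genes) had an unadjusted p under 0.05 with higher values in the libraries labelled Srsf10-kd and 0 with lower, and their median log2 fold change was 0.49, against 0.01 for all genes tested. Snhg15 had a log2 fold change of 0.87 (SE 0.17, edgeR adjusted p = 0.0935) and Snhg9 one of 1.47 (SE 0.38, edgeR adjusted p = 0.119). Snhg15 was at 2.702, 2.691, 4.066 and 3.528 CPM in Srsf10-kd livers 1 to 4 and at 1.94, 1.72, 1.59 and 1.83 CPM in Ctrl livers 1 to 4, with no overlap. Snhg17, at -0.08, was the single tested gene of the list below 0, and Snhg11, Snhg14, Snhg18 and Mir17hg lay between 0.04 and 0.18. Srsf10-kd 3 was the highest liver for 8 of the 13 (Snhg3, Snhg5, Snhg6, Snhg9, Snhg15, Snhg20, Zfas1 and Epb41l4aos). Without Ctrl 3 and Srsf10-kd 3 the median log2 fold change of the list was 0.21, and with the length trend removed 0.26. DESeq2 and limma-voom, which called 5.27% and 11.7% of all genes, each called Snhg9, Snhg15 and Snhg20 higher in the livers labelled Srsf10-kd. Snhg9 was near the floor, at 0.0702 to 0.545 CPM over the 8 livers, and its DESeq2 adjusted p was 0.04999.

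**Figure D5:**
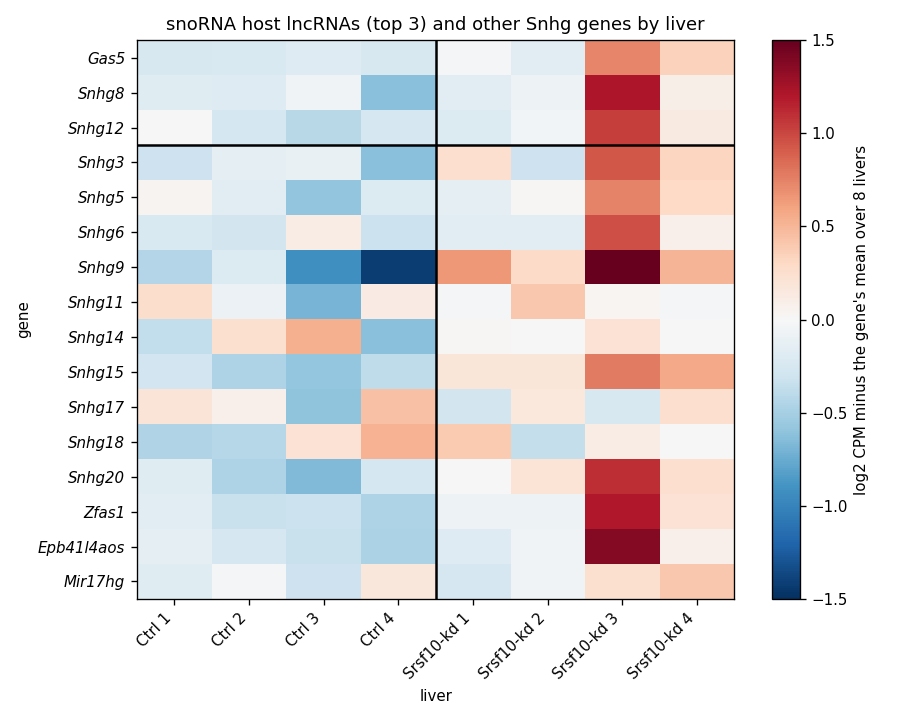
Heat map of log2 CPM minus the mean of each gene over 8 livers (colour scale), for the 3 snoRNA host lncRNAs above the line and 13 other Snhg genes below it (rows), with Ctrl livers left of the vertical line and Srsf10-kd livers right of it (columns). The column of Srsf10-kd 3 is the reddest for Gas5, Snhg8, Snhg12 and 8 of the other 13 genes.

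The proteins and genes that work with these RNAs were read from lists chosen with earlier results of these data known. In edgeR, 0 genes of any of these lists passed the adjusted threshold. Counts at an unadjusted p under 0.05 are read against the 21.8% of all genes that had one. Of 22 box C/D and H/ACA snoRNP proteins tested, 6 (27.3%) had an unadjusted p under 0.05 with higher values and 0 with lower in the libraries labelled Srsf10-kd (median log2 fold change 0.24). They included Gar1, an H/ACA core protein (0.53, SE 0.13, edgeR adjusted p = 0.116), and Coil, the coilin of Cajal bodies (0.52, SE 0.185, edgeR adjusted p = 0.171), while Shq1 and Tcof1 stood at -0.10 and -0.11. Of 48 protein-coding snoRNA hosts, 6 had such a p with higher values and 4 with lower (20.8% in all, median 0.19), with Rps20 and Rpl21, ribosomal proteins, at 0.53 and 0.45, and Eef2, an elongation factor, and Ipo7, an importin, at -0.47 and -0.79. Of 26 nonsense-mediated decay factors, 5 and 7 did (46.2% in all, median -0.06), with Upf3b at 0.73, Magohb at 0.81, the decapping enzyme Dcp2 at -0.48 and the exonuclease Xrn1 at -0.48.

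Paraspeckle and speckle proteins, partners of Neat1 and Malat1, had medians near those of all genes. Of 28 paraspeckle proteins, 1 had an unadjusted p under 0.05 with higher values and 2 with lower (10.7% in all, median -0.01). Nono, needed to build paraspeckles, had a log2 fold change of -0.30 (SE 0.13, edgeR adjusted p = 0.220) and Rbm12 one of 0.46 (SE 0.12, edgeR adjusted p = 0.120), while Fam98a stood at -0.30 and Taf15 at 0.17. Of 28 nuclear speckle proteins, 5 and 2 had such a p (25.0% in all, median 0.11), with Luc7l3 at 0.62 and U2af1, the small U2AF subunit, at 0.34, and with Prpf4b at -0.41 and Sf3b1 at -0.30. Of 11 other nuclear or chromatin lncRNAs tested, 2 and 2 did (36.4% in all, median -0.16). Those with lower values were 2900097C17Rik, the mouse Norad (-1.005, SE 0.26, edgeR adjusted p = 0.120), and 1700020I14Rik, also named Oip5os1 (-0.46, SE 0.09, edgeR adjusted p = 0.0935). Both are known chiefly for binding cytoplasmic proteins or miRNAs. Mir22hg and Mir99ahg, miRNA hosts, stood at 0.34 and 1.03.

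Imprinted protein-coding genes from the whole genome were read beside Meg3, Rian and H19. Dlk1, Rtl1 and Dio3, the coding genes of the cluster that holds Meg3 and Rian, did not pass the filter on low counts, with at most 0.107 CPM in any liver. Of 26 imprinted protein-coding genes tested, 2 had an unadjusted p under 0.05 with higher values and 3 with lower (19.2% in all, median 0.17). Igf2, the growth factor gene next to H19, was at 2.01, 1.83, 2.26 and 2.33 CPM in Srsf10-kd livers 1 to 4 and at 0.938, 1.18, 1.83 and 1.07 CPM in Ctrl livers 1 to 4. Its log2 fold change was 0.75 (SE 0.22, edgeR adjusted p = 0.133), of opposite sign to that of H19, and only Ctrl 3 reached the Srsf10-kd range. Mest stood at 0.44, Igf2r at -0.65 and Slc38a4, an amino acid transporter, at -0.32. Of the 3 other imprinted lncRNAs tested, Kcnq1ot1 had a log2 fold change of 0.64 (SE 0.19, edgeR adjusted p = 0.136), Airn -0.27 and Peg13 -0.19.

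Cell type markers were read beside these values. Of 8 cholangiocyte markers, 8 had a log2 fold change above 0 and 6 (75.0%, against 21.8% of all genes) an unadjusted p under 0.05, and their summed level was 55.0 to 77.7 CPM in Srsf10-kd against 35.8 to 44.6 CPM in Ctrl. A log2 fold change above 0 was also found for 7954 of all 15491 genes tested. Within the sum Spp1 alone had a mean of 32.3 CPM in Srsf10-kd and 21.4 CPM in Ctrl. DESeq2 and limma-voom, with 5.27% and 11.7% of all genes called, each called Krt19, Cldn7 and Tspan8 higher, and edgeR called none of the list. The summed hepatocyte markers overlapped between groups (117054 to 134131 CPM in Srsf10-kd and 102155 to 127395 CPM in Ctrl), with Alb the larger part of the sum. Apob, an apolipoprotein, was lower with no overlap (-0.93, edgeR adjusted p = 0.115, DESeq2 adjusted p = 0.00270, limma-voom adjusted p = 0.00953), and the liver transcription factor Hnf4a stood at -0.50 (edgeR adjusted p = 0.155, limma-voom adjusted p = 0.0274). Among the 13 hepatocyte markers tested, 5 had a log2 fold change above 0 and 8 below (median -0.05), with Ttr at 0.39 and Alb at 0.22. An unadjusted p under 0.05 was found for 2 of them (15.4%, against 21.8% of all genes). Among 14 endothelial markers, 8 had a log2 fold change above 0 and 6 below (median 0.03). An unadjusted p under 0.05 was found for 5 (35.7%, against 21.8% of all genes). Egfl7 (0.43), Emcn (0.55) and Lyve1 (0.57) were higher with no overlap, which held for 14.3% of all genes in either direction. Stab1 stood at -0.40 and Stab2 at -0.57. Of these named genes limma-voom called all but Stab1 (11.7% of all genes called), DESeq2 called Egfl7 and Emcn (5.27%), and edgeR called none. Summed levels overlapped for Kupffer cell and macrophage markers (273.99 to 519 and 334 to 484), endothelial (373 to 421 and 381 to 429), stellate cell and fibroblast (98.3 to 120 and 114 to 131), lymphocyte (4.97 to 7.61 and 5.49 to 7.58) and neutrophil markers (1.12 to 3.43 and 2.01 to 2.27). Single markers inside these sums were called. Hgf, of the stellate cell list, was lower with no overlap (-1.29, edgeR adjusted p = 0.131, DESeq2 adjusted p = 0.0149, limma-voom adjusted p = 0.0451). Reln (-0.41) and Cd163 (-0.55) were called lower by limma-voom alone (adjusted p = 0.0373 and 0.0255). Log2 fold changes were above 0 for 7 of 14 stellate cell and fibroblast markers and for 8 of 15 Kupffer cell and macrophage markers. The list of adipocyte, muscle and pancreas markers summed to 45.1 to 292 CPM in Srsf10-kd and 57.8 to 161 CPM in Ctrl. Of its 9 tested genes, 5 (55.6%, against 21.8% of all genes) had an unadjusted p under 0.05, all pancreatic and with higher values. Each of the 5 was highest in Srsf10-kd 2. Ctrb1, a pancreatic protease, was at 2.82 to 80.9 CPM in Srsf10-kd and at 1.30 to 1.96 CPM in Ctrl, and Pnlip, pancreatic lipase, at 1.94 to 57.6 CPM and at 0.834 to 1.51 CPM. The highest liver for both was Srsf10-kd 2, and in the other Srsf10-kd livers Ctrb1 reached at most 4.63 CPM and Pnlip at most 2.996 CPM. The groups did not overlap for either, against 14.3% of all genes. The part of other cell types in the values of the lncRNAs was not tested. No marker of these lists that was matched was at 0 in all livers.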

How the data were processed

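The authors deposited a table of raw counts per Ensembl gene for 8 livers (4 Srsf10-kd, 4 Ctrl), made with STAR 2.7.7a on GRCm38 from polyA-selected, directional libraries; the annotation release and the strand setting of the counts are not given in the sources used here. Each library held 50456404 to 59697241 counts. Symbols, exons and lengths came from GENCODE M21 and start sites from RefSeq. In R 4.3.3, edgeR 4.0.16 (TMM, filterByExpr, quasi-likelihood F test, Benjamini-Hochberg over the 15491 genes tested) compared the groups; levels are CPM, and exact two-sided permutation tests used log2 CPM (prior count 2) over the 70 assignments of 8 livers. DESeq2 1.42.0, limma 3.58.1 (voom with quality weights), other scalings and filters, lowess corrections for length and GC (span 0.5), a replicate block and omission of livers were alternatives. Scripts were tested on simulated data. The members and lists were chosen with earlier results of these data known. Genes named outside the members were those of each list past the threshold, else the 2 with the smallest unadjusted p in each direction, the 3 most correlated with a member, and annotated neighbours. Acta1, Lyve1, Spp1, Cldn7, Snhg20, Dlk1, Rtl1, Dio3, the Snhg genes near 0 and the 8 Snhg genes highest in Srsf10-kd 3 were named after their values were seen. The study gives 4 mice per group, and the labels number the livers without tying them to animals, so p-values measure the spread between these livers. No 2 libraries agreed within counting noise: in all 28 pairs the chi-square was at least 34.2 times its degrees of freedom.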

Additional observations from a re-analysis of the deposited data

Results flagged for a closer look

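In the Srsf10-kd group, Malat1 in Srsf10-kd 3 (2229.6 CPM) stood apart from the other 3 livers (692 to 894 CPM) by a gap that took up most of the group's range. Snhg8 did the same in that liver, at 39.1 CPM against 15.1 to 18.0 CPM. These were 2 of 22 groups of 4 livers examined in this way, where chance flags about 1 in 20, or 1.1 groups. Both came from the liver whose slope on transcript length was the lowest of the 8 (0.43). Removing the length trend moved the 2 log2 fold changes in opposite directions, Malat1 from 0.81 to 1.12 and Snhg8 from 0.63 to 0.26. The cause was not tested.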

How the results depend on the processing

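The count of members called was 0 in all 18 alternatives, with an unadjusted p under 0.05 for 0 to 4 of the 8, and 136 of 142 alternative fold changes of members kept their sign. The 6 that did not were Neat1 without Srsf10-kd 4 (-0.13) or Ctrl 3 (-0.06), in a range of -0.13 to 0.61 over the livers left out, Rian without Srsf10-kd 1 (-0.11), Ctrl 2 (-0.06) or Ctrl 3 (-0.03), in a range of -0.11 to 0.38, and H19 in limma-voom (0.11). H19 and Rian did not pass the filter of 10 counts in every liver. Among other named genes, Snhg17 turned to 0.062 without Ctrl 4, in a range of -0.25 to 0.062, and removing the length trend turned Shq1 to 0.14, Tcof1 to 0.025 and Rpph1 to -0.16. Over all genes, 11 calls became 824 in DESeq2, 1814 in limma-voom, 46 with no filter on low counts, 59 with the replicate block, 1342 without Ctrl 3 and Srsf10-kd 3 and 6 with the length trend removed, and 0 to 544 (without Ctrl 3) when a liver was left out. The cause was not tested. The companion lists had 0 calls in the main test. List sizes given here are the genes tested in edgeR with all 8 livers. DESeq2, with 5.27% of all genes called, called 3 of 13 other Snhg genes, 3 of 11 other nuclear or chromatin lncRNAs and 1 of 3 other imprinted lncRNAs. It also called 1 of 28 paraspeckle proteins, 2 of 28 nuclear speckle proteins, 1 of 26 imprinted protein-coding genes, 1 of 22 snoRNP proteins and 5 of 26 nonsense-mediated decay factors. In the same lists limma-voom, with 11.7% of all genes called, called 3, 3, 1, 1, 4, 3, 2 and 8, and also 5 of 48 protein-coding snoRNA hosts. Without Ctrl 3 and Srsf10-kd 3, with 8.62% of all genes called, the calls were 1 other Snhg gene (Snhg15), 3 other nuclear or chromatin lncRNAs, 3 nuclear speckle proteins, 2 imprinted protein-coding genes, 3 protein-coding snoRNA hosts and 8 nonsense-mediated decay factors. When 1 liver was left out, calls ranged from 0 to 1 for other nuclear or chromatin lncRNAs, imprinted protein-coding genes and protein-coding snoRNA hosts, 0 to 2 for nuclear speckle proteins and 0 to 3 for nonsense-mediated decay factors. The replicate numbers were not taken to pair the livers, since no label says so and the correlation of deviations was -0.18 for number 1, below the 0.1 asked of every pair. It was 0.21, 0.27 and 0.22 for numbers 2 to 4, and 3 of 4 Srsf10-kd livers correlated best with the Ctrl liver of their number, a hint from the data. With the replicate block 1 nonsense-mediated decay factor (Nbas) was called, members stayed at 0, and Neat1 had a log2 fold change of 0.23 (SE 0.11, edgeR adjusted p = 0.213). Raw counts of 4 to 59 limit Meg3, Rian and H19.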

Other observations

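The tested genes whose log2 CPM ran most like each member over the 8 livers are given as a description, since all points share the same libraries and their length slopes. For Neat1 they were H2-K2 (r = 0.98), Tmem82 (r = 0.97) and 2810030D12Rik (r = 0.96), and H2-K2 was likewise highest in both livers numbered 4, at 8.45 and 8.13 CPM. For Malat1 they were Cdk5r1 (r = 0.98), Shkbp1 (r = 0.97) and Gm43775 (r = 0.97). Gm43775 stood at 5.86 CPM in Srsf10-kd 3 and at 0.540 to 1.499 CPM elsewhere. For Gas5 they were Lsm7, an RNA-binding ring protein (r = 0.99), the ribosomal protein gene Rps20 (r = 0.99) and Nenf (r = 0.98). For Snhg8 they were Fkbp2 (r = 0.997), F8a (r = 0.996) and Tmed1 (r = 0.995), and Fkbp2 was at 137 CPM in Srsf10-kd 3 and at 41.6 to 66.2 CPM elsewhere. For Snhg12 they were Mlf2 (r = 0.99) and the noncoding genes 6430590A07Rik and 2310001H17Rik (each r = 0.98). For Meg3 they were Nob1 (r = 0.98), Mfsd10 and Zfhx3 (each r = 0.97), and for Rian, Neil2 (r = 0.94), Blnk (r = 0.93) and Banp (r = 0.92).

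Genes that lie wholly under exons of another gene gave a reading of strand. Of 391 such genes under exons of the opposite strand only, 127 had at least 10 counts over the 8 livers (32.5%), against 54 of 611 (8.84%) under exons of the same strand. Of 8 RNA genes known to lack a polyA tail, 3 were tested, with Rmrp at a log2 fold change of 0.64 and Rpph1 at 0.29 (edgeR adjusted p = 0.472 and 0.555), and 3 were at 0 in every liver.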
